A study of Rattus norvegicus with 2 samples.

Results

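The miR-181 family was described by its 4 guide strands on the arrays, rno-miR-181a, rno-miR-181b, rno-miR-181c and rno-miR-181d (the prefix rno marks rat), which were taken by name from 350 rat miRNA features. Names ending in an asterisk were left out, namely miR-181a*, which was not detected on either array. MicroRNA levels were measured on 1-colour arrays with Cy3-labelled total RNA from the carotid artery of male Sprague-Dawley rats of about 250 g. The uninjured group was an artery that had not been injured, and the injured group was an artery taken 10 days after a balloon catheter had stripped the endothelium and stretched the wall. Each group held 1 array, so no replicate error, test or p-value could be had for any value, and every comparison is between these 2 arrays. The number of rats behind each array was not stated in the labels.

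A miRNA pairs with messenger RNAs mainly through its seed, bases 2 to 8, and lowers the output of the transcripts it binds, so members of a family with 1 seed share most of their predicted targets. The miR-181 family is known for tuning antigen receptor signalling in developing lymphocytes (miR-181a) and for limiting the nuclear import of NF-kB in endothelium by repressing importin alpha 3 (miR-181b). miR-181c is known from heart muscle, where it acts on a mitochondrial transcript, and miR-181d from glioma, where it represses the DNA repair enzyme MGMT. Balloon injury is followed by division of smooth muscle cells, entry of leukocytes and growth of a neointima.

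The mature sequences are shown because the members with the nearest sequence do not come from the same genomic cluster. All 4 members matched RefSeq entries (GRCr8), named there as the 5p arms, and the capitals mark the seed.
miR-181a: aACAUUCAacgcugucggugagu
miR-181b: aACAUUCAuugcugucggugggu
miR-181c: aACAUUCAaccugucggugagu
miR-181d: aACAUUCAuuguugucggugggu
The seed ACAUUCA was carried by 4 of 693 mature rat miRNA names in the table, and those 4 were the family members. With positions counted from 1 at the 5′ end, miR-181b differed from miR-181a by A9U, C10U and A21G, all outside the seed. miR-181d differed from miR-181b by C12U alone, at 95.7% identity. miR-181c, of 22 bases against 23 for the other members, differed from miR-181a by the absence of 1 base. The cluster partners were less alike: miR-181a and miR-181b had 87.0% identity, and miR-181c and miR-181d 78.3%. Sequence thus paired miR-181a with miR-181c and miR-181b with miR-181d. The probes are not given in the files used here, so whether they separate members that differ by 1 base was not tested.

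The hairpin precursors are shown to place each member beside its cluster partner, with the mature strand in capitals. Positions are on GRCr8, all on the plus strand. Mir181a2 (chr3:43025563-43025679) and Mir181b2 (chr3:43026666-43026753) are 986 bases apart.
Mir181a2: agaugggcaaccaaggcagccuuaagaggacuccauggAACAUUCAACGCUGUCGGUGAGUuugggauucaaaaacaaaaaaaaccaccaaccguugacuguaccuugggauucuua
Mir181b2: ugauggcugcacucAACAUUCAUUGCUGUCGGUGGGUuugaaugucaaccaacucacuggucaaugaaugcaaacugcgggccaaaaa
Mir181c (chr19:40888291-40888396) and Mir181d (chr19:40888474-40888556) are 77 bases apart.
Mir181c: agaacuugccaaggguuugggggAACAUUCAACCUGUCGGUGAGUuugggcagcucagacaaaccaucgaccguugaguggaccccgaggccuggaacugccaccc
Mir181d: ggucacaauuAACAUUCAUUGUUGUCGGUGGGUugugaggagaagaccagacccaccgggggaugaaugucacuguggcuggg
A further a/b cluster lies on chromosome 13, where the mature strands of Mir181a-1 (chr13:52037081-52037103) and Mir181b1 (chr13:52037263-52037285) begin 182 bases apart. In the RefSeq annotation of GRCr8 the chromosome 3 cluster overlaps Nr6a1, an orphan nuclear receptor gene, and LOC120101539. The chromosome 13 cluster overlaps LOC108352541 and Mir3570. Overlap was taken without regard to strand. The next gene after the chromosome 13 cluster is Ptprc, which encodes the leukocyte antigen CD45, and the next after the chromosome 19 cluster is Nanos3, a germ cell gene. miR-181a and miR-181b are the same mature sequence from either locus, so their signals cannot be assigned to chromosome 3 or 13.

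Across the arrays, 166 miRNAs were measured (flag of 1) in the uninjured and 184 in the injured artery, 158 of them on both. miR-143, the defining miRNA of smooth muscle, gave the highest miRNA signal on both, 17014 and 13992, and the skeletal muscle miR-206 was not detected on either. The log2 ratio is injured minus uninjured, after each array's 75th percentile over the 158 was subtracted. Over the 158 it had a median of 0.14 and quartiles of -0.15 and 0.58. The 2-fold threshold, which is descriptive, was passed by 12.7% of them upwards (20) and 3.80% downwards (6). This split depended on the scaling: it was 8 against 16 with the arrays aligned at their medians, 12 against 11 with quantile normalization, 7 against 19 with the 75th percentile of all features and 7 against 23 with the control features aligned. Those scalings moved the log2 ratios by a median of -0.44, -0.30, -0.49 and -0.59.

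All 4 family members were measured on both arrays and none differed by 2-fold, beside 16.5% of all measured miRNAs. miR-181b was the highest of the family in its ratio, 1.62-fold higher in the injured artery, and miR-181c the lowest, 1.73-fold lower. miR-181a and miR-181d lay near 0. At a 1.5-fold threshold, added after seeing the data, 1 member was higher and 1 was lower, where 24.7% and 10.1% of all measured miRNAs were, 34.8% in all. The higher member, miR-181b, fell short of 1.5-fold with medians aligned (log2 ratio of 0.25) and with quantile normalization (0.27). It also fell short with the 75th percentile of all features (0.20) and with the control features aligned (0.10). The family's median log2 ratio of 0.13 was close to the 0.14 of all 158, with members on both sides of it. The family's signals summed to 245 in the uninjured and 248 in the injured artery, and most of that sum was miR-181a.

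**Figure D1:**
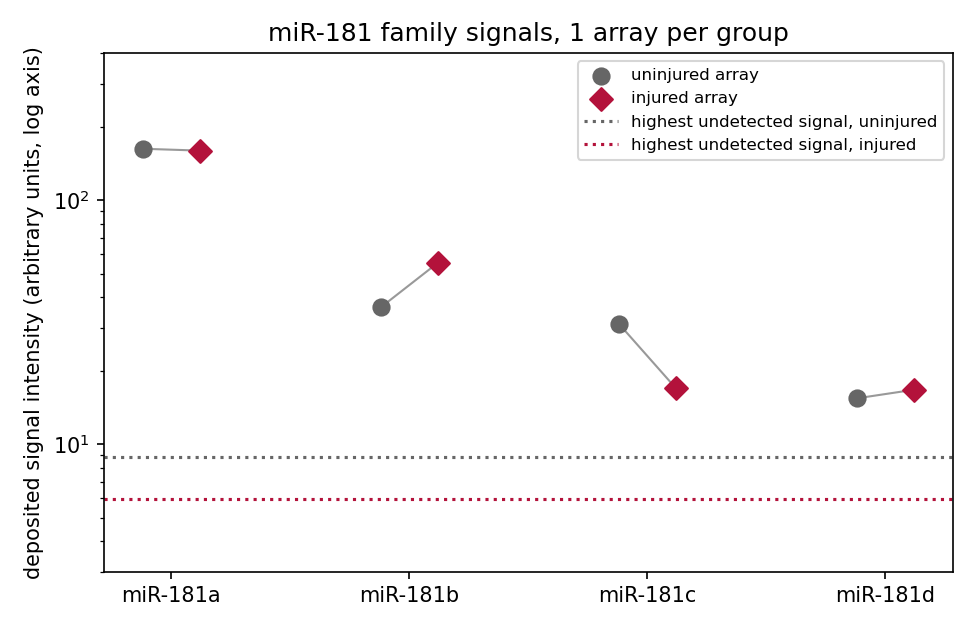
Deposited signal intensity (arbitrary units, log axis) of each miR-181 member on the uninjured (grey circle) and injured (red diamond) array, with dotted lines at each array's highest undetected miRNA signal, 8.84 and 5.98. Each point is 1 array; miR-181b is higher and miR-181c lower on the injured array, while miR-181a and miR-181d are nearly level.

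rno-miR-181a gave a signal of 162 in the uninjured artery and 159 in the injured one. Before scaling these differ by 1.02-fold, and the scaled log2 ratio was 0.06. It was the member furthest above the undetected miRNAs, at 18.3 and 26.7 times the highest undetected signal of each array. Of the 158 measured miRNAs, 97 had a higher ratio and 60 a lower one. The miRNAs nearest to it in ratio were let-7e (0.07), miR-652 (0.07) and miR-27b (0.07).

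rno-miR-181b gave signals of 36.3 and 55.3, the higher in the injured artery. This is 1.52-fold before scaling and a log2 ratio of 0.69 after it. The ratio was higher in 30 of the 158 miRNAs and lower in 127. miR-181b remained above 0 under every scaling tried, down to 0.10 with the control features aligned. Nearest to it in ratio were miR-25, of the miR-106b cluster (0.69), miR-199a-5p (0.72) and the passenger strand miR-23a* (0.66).

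rno-miR-181c gave signals of 31.2 and 16.96, the lower in the injured artery. The log2 ratio was -0.79, and 10 of the 158 miRNAs had a lower one. It remained below 0 under every scaling and passed 2-fold with the arrays aligned at their medians (-1.23), with the 75th percentile of all features (-1.29) and with the control features aligned (-1.38). Both signals were close to the dim end, at 3.53 and 2.84 times the highest undetected signal, and 8 units added to each intensity brought the ratio to -0.59. The nearest ratios were those of miR-874 (-0.81), let-7d* (-0.73) and miR-338, which oligodendrocytes need to mature (-0.85). Both let-7d* signals, 6.11 and 3.47, were below the highest undetected signal of their array.

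rno-miR-181d was the dimmest member, with signals of 15.4 and 16.7. The uninjured signal was 1.74 times and the injured signal 2.80 times the highest undetected one. The log2 ratio was 0.20, with 72 of the 158 miRNAs above it and 85 below. The nearest ratios were those of miR-30e (0.21), miR-125a-5p (0.20) and the leukocyte miRNA miR-342-3p (0.19). Likeness here means nearness of 1 ratio over 2 arrays.

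The directions of miR-181a and miR-181d were set by the scaling. miR-181a ranged from -0.53 to 0.06 and miR-181d from -0.39 to 0.20, and both were negative with medians, quantiles, the 75th percentile of all features or the control features aligned. Without scaling miR-181a was at -0.03 and miR-181d at 0.12.

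**Figure D2:**
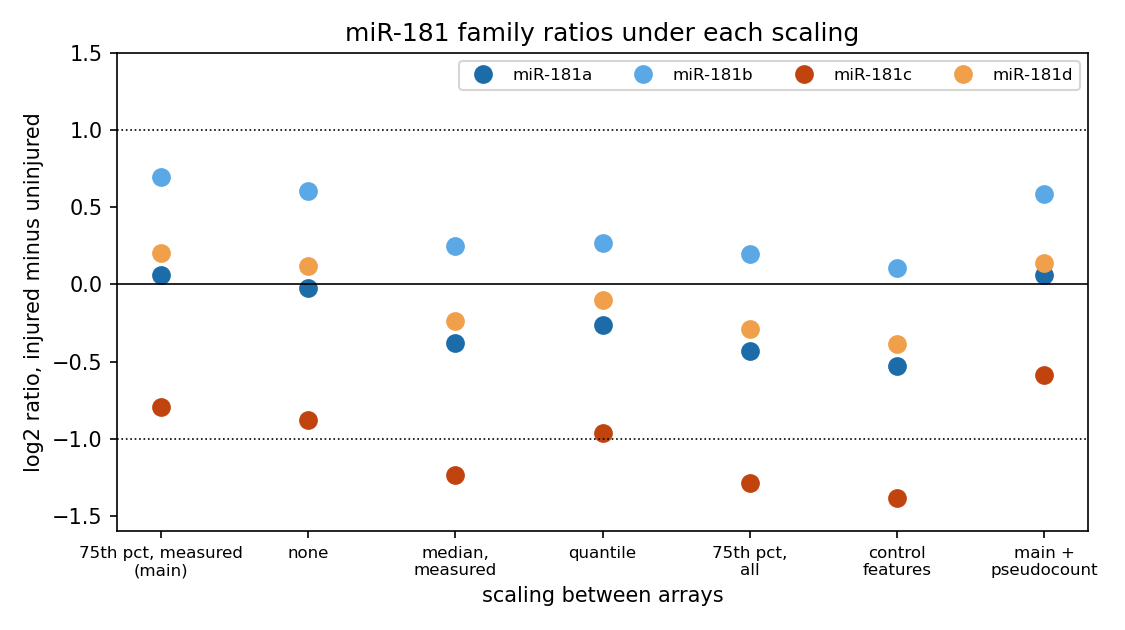
Log2 ratio (injured minus uninjured) of the 4 members under the main scaling and 6 other settings, 1 point per member; dotted lines mark 2-fold. miR-181b stays above 0 and miR-181c below 0 in all of them, miR-181a and miR-181d change sign, and the order of the 4 is the same throughout.

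Dim miRNAs spread more widely in ratio than bright ones. In 4 bins of mean signal, the interquartile range of the log2 ratio was 0.87 and 0.91 in the dimmer bins and 0.69 and 0.43 in the brighter ones. miR-181b and miR-181c fell in the same bin, with mean signals from 22.4 to 80.0 and quartiles of -0.18 and 0.73. There miR-181c had 3 of 39 miRNAs below it and miR-181b had 10 above it, so miR-181b lay within the quartiles and miR-181c below the lower one. miR-181d, in the dimmest bin, and miR-181a, in the next to brightest, lay within the quartiles of theirs. This spread is between miRNAs on 2 arrays and is not a replicate error.

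**Figure D3:**
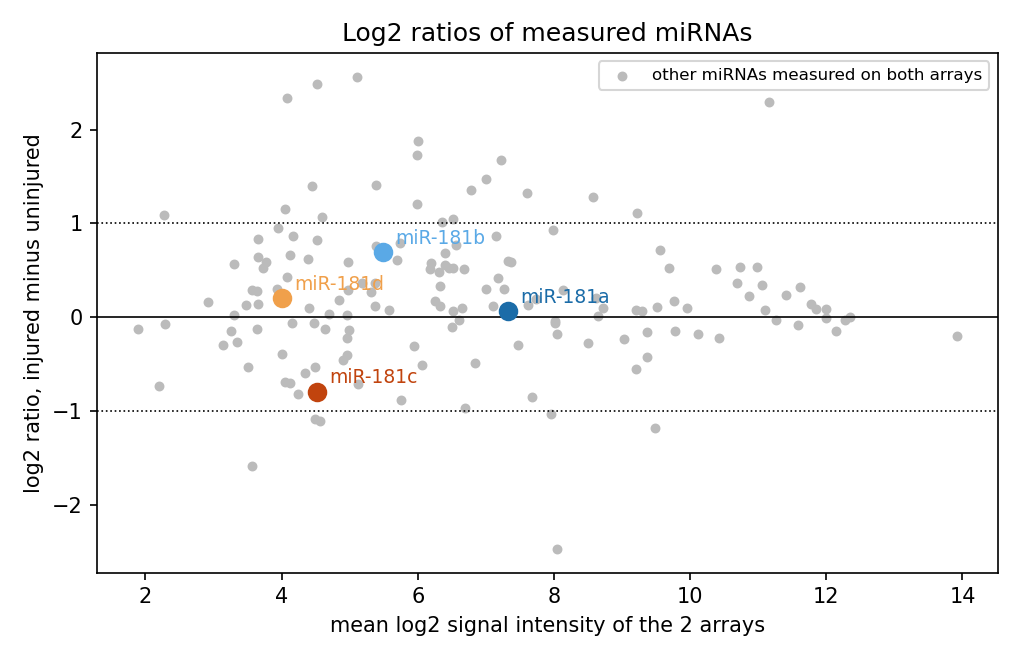
Mean log2 signal of the 2 arrays against the log2 ratio (injured minus uninjured) for the 158 miRNAs measured on both, with the 4 members in colour and dotted lines at 2-fold. miR-181c lies near the lower edge of miRNAs of like signal at -0.79, miR-181b at 0.69 lies inside their spread, and miR-181a and miR-181d are near 0.

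The a/b cluster products had the higher ratios on average. The mean log2 ratio was 0.38 for miR-181a and miR-181b and -0.29 for miR-181c and miR-181d, a difference of 0.67 or 1.59-fold. A uniform scaling cannot move this difference, and it was 0.53 with quantile normalization and 0.55 with the pseudocount. The products within a cluster also differed, those of c/d by more than the clusters did and those of a/b by slightly less. Within the a/b cluster miR-181a minus miR-181b was -0.63, and within the c/d cluster miR-181c minus miR-181d was -0.995, a 1.99-fold difference between neighbours 77 bases apart. miR-181d lay closer to miR-181a (difference of 0.14) than to its own partner. The cluster difference therefore came from miR-181b at the top and miR-181c at the bottom, with the other two between them and in the opposite order to that of the clusters.

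Grouping by sequence separated the members slightly more than grouping by cluster. The mean log2 ratio of miR-181b and miR-181d was 0.45 and that of miR-181a and miR-181c -0.37, a difference of 0.81. In each cluster the member of the b/d sequence type had the higher ratio. Members that differ by 1 base also differed in ratio, miR-181a minus miR-181c by 0.85 and miR-181b minus miR-181d by 0.49. The largest of the 6 pairwise differences was miR-181b minus miR-181c, 1.49 on the log2 scale or 2.80-fold. With 1 array per group, none of these 6 differences could be set against a replicate spread.

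The let-7, miR-30 and miR-29 families, the 3 set beside miR-181, spread less on these arrays. From lowest to highest member the log2 ratios spanned 1.49 in the miR-181 family. The span was 0.26 over 8 let-7 members, with miR-98 counted among them, 0.44 over 5 miR-30 members and 0.72 over 3 miR-29 members. This does not hold for every family of 1 seed, since miR-146a and miR-146b lay at 0.77 and 2.56. miR-15b and miR-195, which share a seed, lay at 1.33 and -0.15, and miR-17-5p and miR-106b, which share another, at 2.34 and 0.87. The uninjured miR-17-5p signal, 7.78, was below the highest undetected signal of that array, 8.84. The let-7, miR-30 and miR-29 families were brighter, with lowest mean signals of 138 (miR-98), 197 and 1105 against 16.1 for miR-181d. The part of brightness in the wider span was not tested.

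Pairs of miRNAs from other genomic clusters gave a scale for the differences within the miR-181 clusters. Of 16 listed pairs 15 were measured on both arrays, and the RefSeq table placed 14 of the 15 within 10000 bases of each other on 1 strand. Their log2 ratios differed by a median of 0.46, from 0.003 for miR-195 and miR-497 to 1.36 for the erythroid miR-144 and miR-451. The difference of 0.995 between miR-181c and miR-181d was larger than in 14 of the 15, with miR-144 and miR-451 the exception. The difference of 0.63 between miR-181a and miR-181b was larger than in 11 of the 15. The listed pair left out was miR-132 and miR-212, since miR-132 was not measured on both arrays. The signals of miR-132 were 0.71 uninjured and 17.8 injured, and those of miR-212 were 129 and 162. That pair could therefore not be ranked against miR-181c and miR-181d. Dimmer pairs were further apart: the 5 with a member of mean signal up to 80.0 ran from 0.50 to 1.36 with a median of 0.61, and the other 10 had a median of 0.30. Against the dimmer pairs miR-181c and miR-181d again stood second to miR-144 and miR-451. With a mean signal of 44.8 for miR-181b, the a/b pair is also a dimmer one, and its 0.63 was close to their median of 0.61. That median is the difference between miR-17-5p and miR-20a. The uninjured miR-17-5p signal of 7.78 was below that array's highest undetected signal of 8.84. miR-29b and miR-93 each occur in more than 1 pair, so the pairs are not all separate. Whether members of the other pairs are also made at further loci was not examined.

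**Figure D4:**
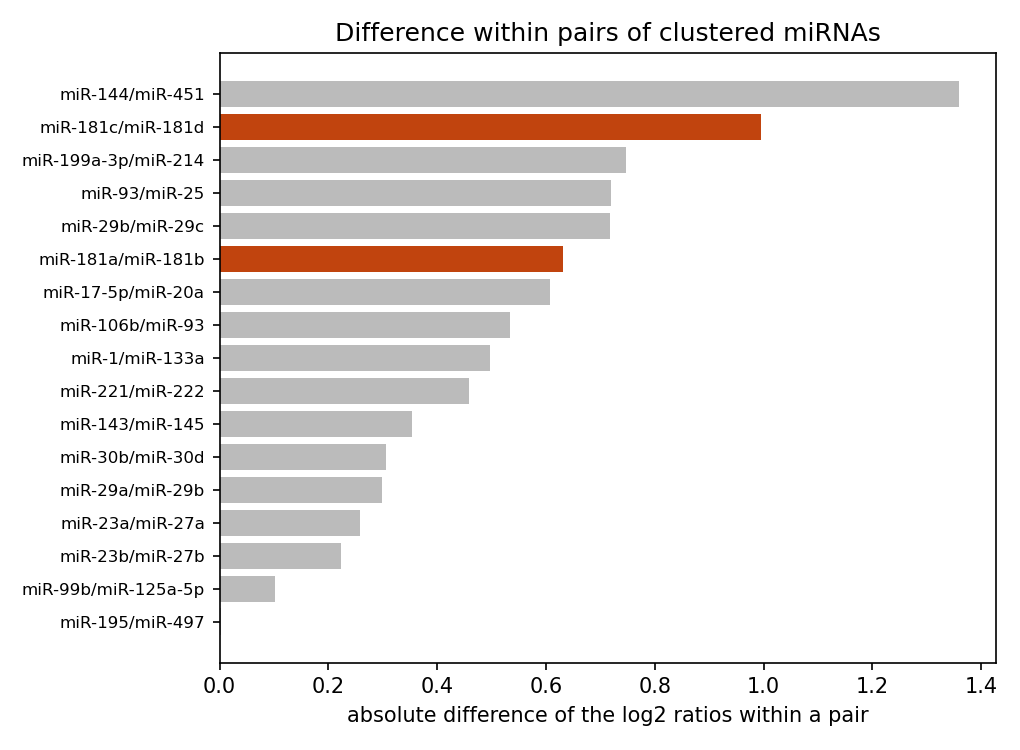
Absolute difference of the log2 ratios within 17 pairs of clustered miRNAs measured on both arrays, in order of size, with the miR-181 pairs in red. The bar of miR-181c and miR-181d, at 0.995, is exceeded by that of miR-144 and miR-451 at 1.36, and the bar of miR-181a and miR-181b is at 0.63.

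Markers of other cells also differed between these arrays. In the leukocyte list 5 of 6 members were measured on both arrays. Of these, 3 were at least 2-fold higher, beside 12.7% of all 158 measured miRNAs. The summed signal of the 5 was 241 in the uninjured and 515 in the injured artery. miR-142-3p, a miRNA of all blood cell lineages, gave 34.6 and 119, and miR-223, of neutrophils and macrophages, 86.2 and 259. miR-150, of mature lymphocytes, gave 82.4 and 54.7, a log2 ratio of -0.50. The other list members, miR-142-5p and miR-342-3p, had log2 ratios of 2.49 and 0.19. miR-155, on this list and the next, was not found by name among the features analysed here. Of the immune and NF-kB related list, 3 of 4 members were measured, miR-146b (2.56), miR-21 (2.29) and miR-146a (0.77), and all had higher ratios than miR-181b.

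The red-cell miR-451 and miR-144 had a summed signal of 677 in the uninjured and 124.6 in the injured artery. Both were over 2-fold lower, where 3.80% of the 158 measured miRNAs were at least 2-fold lower. Of the nerve list, miR-124, miR-9 and miR-138 were detected in the uninjured artery alone, with a summed signal of 50.3 against 6.83. Among all miRNAs, 158 of the 166 measured in the uninjured artery were measured in both. The uninjured miR-9 signal of 7.43 was below that array's highest undetected signal of 8.84. The injured miR-124 value was exactly 1, which was taken as a floor. In the striated muscle list miR-499 was measured, at 10.1 and 7.73, while miR-206 and miR-208 were not detected. That list's summed signal was 11.8 and 10.8. The muscle miRNAs miR-1, miR-133a and miR-133b lay outside the list and were each over 2-fold lower, with log2 ratios of -1.59, -1.09 and -1.03. The smooth muscle miR-143 and miR-145 summed to 17749 and 14465, and the endothelial miR-126 and miR-126* to 626 and 615. The part of these cells in the ratios of miR-181b and miR-181c was not tested. In whole artery RNA, a different number of cells of a type and a different level per cell cannot be told apart.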

How the data were processed

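Trizol-extracted total RNA was Cy3-labelled with an Agilent reagent for miRNAs, per the labels' protocols. For 350 rat miRNA and 22 control features, the authors deposited a linear signal intensity with a flag, 1 pair per array. The scanner software, any background subtraction and any earlier normalization were not stated. A value of exactly 1, found for 109 miRNAs in either file, was taken as a floor. The flag is undefined in the deposited files and was read as detection. Detected signals began at 3.43 (uninjured) and 1.36 (injured), and the highest undetected ones were 8.84 and 5.98. The deposited value table holds a linear ratio per miRNA, which matched injured over uninjured intensity for 349 of 349 shared names (relative tolerance 1e-05) and served as an alternative.

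On the log2 scale, the 75th percentile of the 158 miRNAs detected on both arrays (401 and 378) was subtracted from each, which raised every ratio by 0.09. With 1 array per group, no test was run; arrays limit the precision. Named miRNAs were the members, the 3 nearest ratios to each, and fixed marker, pair and family lists. The members and lists were chosen with earlier results of these data known; the 1.5-fold threshold was added after seeing the data. Alternatives were 5 other scalings, the deposited ratio table, a pseudocount of 8 and a filter on dim miRNAs. Mature and hairpin sequences come from RefSeq (GRCr8), aligned with Biopython 1.88. Python 3.11.15, numpy 2.4.6 and pandas 2.3.3 were used.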

Additional observations from a re-analysis of the deposited data

Results flagged for a closer look

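The control features lie outside the comparisons of miRNAs. Of 22 such features 6 had a flag of 1 on both arrays. Before scaling all 6 were brighter in the injured hybridisation, by 1.24-fold to 1.94-fold, with a median log2 ratio of 0.50 against 0.05 for the 158 measured miRNAs. Aligning them puts miR-181b at 0.10 and miR-181c at -1.38. What these features detect was not stated.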

How the results depend on the processing

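The direction of miR-181b and miR-181c held under every setting tried, and that of miR-181a, miR-181d and the family median did not. In the order miR-181a, miR-181b, miR-181c, miR-181d and family median, the log2 ratios were -0.025, 0.61, -0.88, 0.12 and 0.046 without scaling and in the deposited ratio table, -0.38, 0.25, -1.23, -0.24 and -0.31 with medians aligned, -0.27, 0.27, -0.96, -0.10 and -0.18 under quantile normalization, -0.43, 0.20, -1.29, -0.29 and -0.36 when the 75th percentile covered all features, and -0.53, 0.10, -1.38, -0.39 and -0.46 with control features aligned. With a pseudocount of 8, miR-181b, miR-181c, miR-181d and the median were at 0.59, -0.59, 0.14 and 0.10. The a/b minus c/d, a minus b and c minus d differences were 0.53, -0.53 and -0.86 with quantile normalization and 0.55, -0.53 and -0.72 with the pseudocount; a uniform scaling cannot move them, so their constancy there adds no support. Counts of miRNAs at least 2-fold higher and lower were 8 and 16 with medians aligned, 12 and 11 under quantile normalization, 7 and 19 when the 75th percentile covered all features, 7 and 23 with control features aligned, and 3 lower with the pseudocount. The filter on dim miRNAs kept 151 of 158 and all 4 members. No member was measured on 1 array only, so no bound was needed. No paired analysis was possible because each group held 1 array, and no array could be left out. miR-181c and miR-181d are the members whose low signal most limits the reading.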
